A study of Rattus norvegicus with 112 samples.

Results

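The washed-out NMDA experiment asked how rat cortical neurons differ a day after a short exposure to NMDA, the agonist that names the NMDA class of glutamate receptors. It is described here from its first hybridization, which put 5 NMDA and 5 control samples on 1 array each, 10 of the 112 arrays of the series. The labels' run number and sample names nmda1 to nmda5 and Control 1 to 5 chose the arrays, and no measured value did. In the NMDA group, primary cortical neurons received 1 mM NMDA for 30 min, the agonist was washed out, and RNA was taken 24 h later. For the control group the labels give a time of 0 and no agonist. The same hybridization held 5 samples kept for 18 h in 10 uM nicotine with the same NMDA pulse, and 5 with nicotine alone, both also washed and harvested 24 h later. The labels name the source as rat cerebral cortex and give no strain, age or days in culture, and they do not say whether the numbered samples came from separate cultures, so p-values measure the spread between these samples.

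NMDA receptors are channels that open when glutamate binds while the membrane is depolarized, and they let calcium into the neuron. Calcium then drives kinases that phosphorylate CREB and other factors bound at promoters, which switch on immediate early genes such as Fos and Nr4a1 and, later, effector genes such as Bdnf. Long or strong NMDA exposure injures cortical neurons, which is why such pulses serve as a model of excitotoxicity.

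Each array read 1322 probe sets, 59 of them controls, and 884 of the remaining 1263 passed a floor on mean signal and were tested. The floor was set on the mean over all 20 arrays of the run, and the lowest tested mean was 255. A probe set dim in 1 group could thus pass through the others. Signals are linear intensities that the authors had scaled to a common mean. A log2 difference is NMDA minus control, fitted with limma on log2 of the signal plus a small offset, and a probe set is called when its Benjamini-Hochberg adjusted p over all 884 is under 0.05. Every result was computed on the deposited signals and again after quantile normalization, which gives all 20 arrays of the run the same distribution of signals. Differences below are those after quantile normalization unless the sentence says deposited.

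The control arrays stood apart in overall signal. Their median signals lay between 443.2 and 547.2, below all arrays of the other groups, which reached 583.3 to 622.1 for NMDA, 556.8 to 641.0 for nicotine with NMDA and 567.2 to 617.8 for nicotine alone. On deposited values the median difference over all tested probe sets was 0.16 on the log2 scale, and it was 0 after quantile normalization. Among 4 bands of signal the deposited median difference was 0.35 for the dimmest, 0.25 and 0.15 for the middle bands and -0.10 for the brightest. After quantile normalization the same bands gave 0.08, -0.01, 0 and -0.04. In the nicotine cultures, where both groups had similar medians, the deposited values gave -0.02, 0.03, 0.02 and -0.03 for nicotine with NMDA minus nicotine. The ratio of the 3' to the 5' GAPDH control was 1.37 to 1.58 on NMDA arrays and 1.43 to 1.79 on control arrays. The part of RNA quality or hybridization in the difference of medians was not tested.

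**Figure D1:**
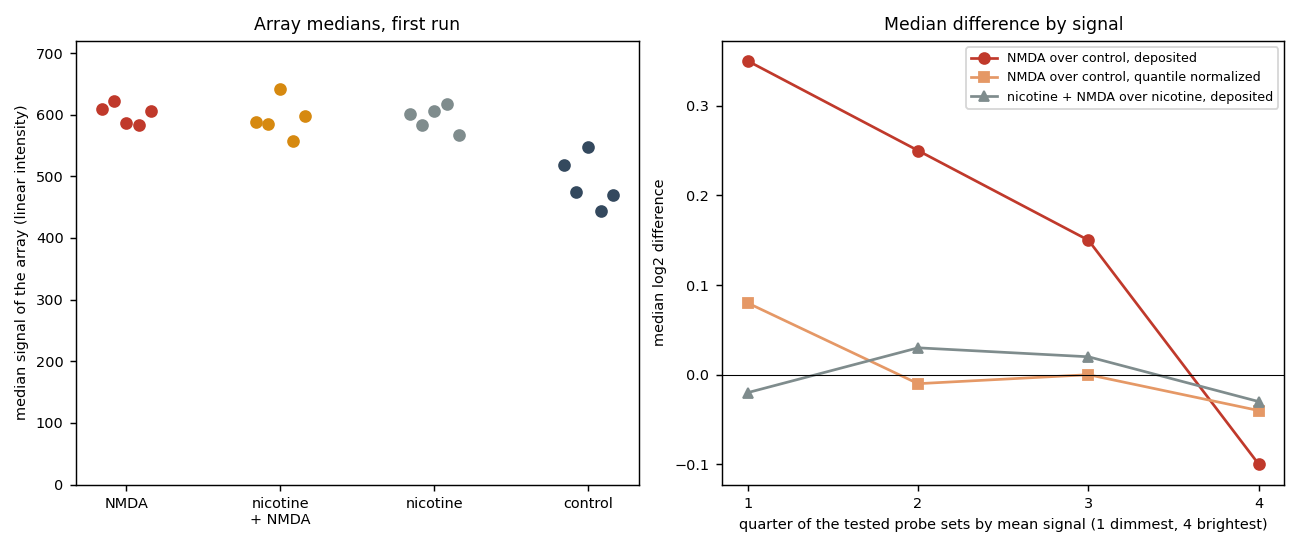
Left, the median signal of each array of the first run by group, in linear intensity, 5 arrays a group. Right, the median log2 difference in 4 bands of mean signal from dimmest to brightest; the deposited NMDA over control line descends from 0.35 to -0.10, while the line after quantile normalization and that of the nicotine cultures stay within 0.08 of 0.

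On deposited values, 123 of 884 probe sets were called, or 13.9%, with 97 higher (11.0%) and 26 lower (2.94%) after NMDA. After quantile normalization 33 were called, or 3.73%, with 20 higher (2.26%) and 13 lower (1.47%). Higher calls were thus 78.9% of calls on deposited values and 60.6% after quantile normalization; centring each array on its median instead gave 33 higher and 148 lower. Of the 33 probe sets, 31 were called on both scales, 20 higher and 11 lower, and they stand for 28 genes. Another 92 were called on deposited values alone. The sample numbers also carried information, as same-numbered NMDA and control arrays tended to deviate together. The exception was number 3, whose NMDA array correlated more with a differently numbered control (0.3 against 0.259 after quantile normalization). With the number as a block 132 probe sets passed after quantile normalization (14.9%), 62 higher (7.01%) and 70 lower (7.92%), and 210 on deposited values (23.8%). All 33 were among the 132. On 57 of 884 probe sets (6.45%) the NMDA and control arrays did not overlap, and 28 of the 33 were of that kind. The calls and the overlap were read from the same arrays, so this count adds no support to the calls. Single arrays moved these counts. After quantile normalization 10 probe sets passed without NMDA replicate 2, 17 without NMDA replicate 1, 16 without control replicate 4 and 61 without NMDA replicate 5. On deposited values 71 passed without NMDA replicate 2, 79 without NMDA replicate 3 and 78 without control replicate 4. Of the 33 probe sets, 10 were called in each of the 10 fits that left out 1 array (Crem, Nr4a3, Slc2a3, Lep, Drd3, Itpka, Kcnd3, Scarb1, Slc1a1 and Mapk8ip2), and 11 in fewer than 5 of them. Those 11 were the probe sets of Kcne1, Gabra5, Cacna1b, Ndst1, Apex1, Hrk, Gria4 and Stx8, Bdnf at rc_AI030286_s_at, Nefl at AF031880_at and the unnamed M55417exon_s_at.

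**Figure D2:**
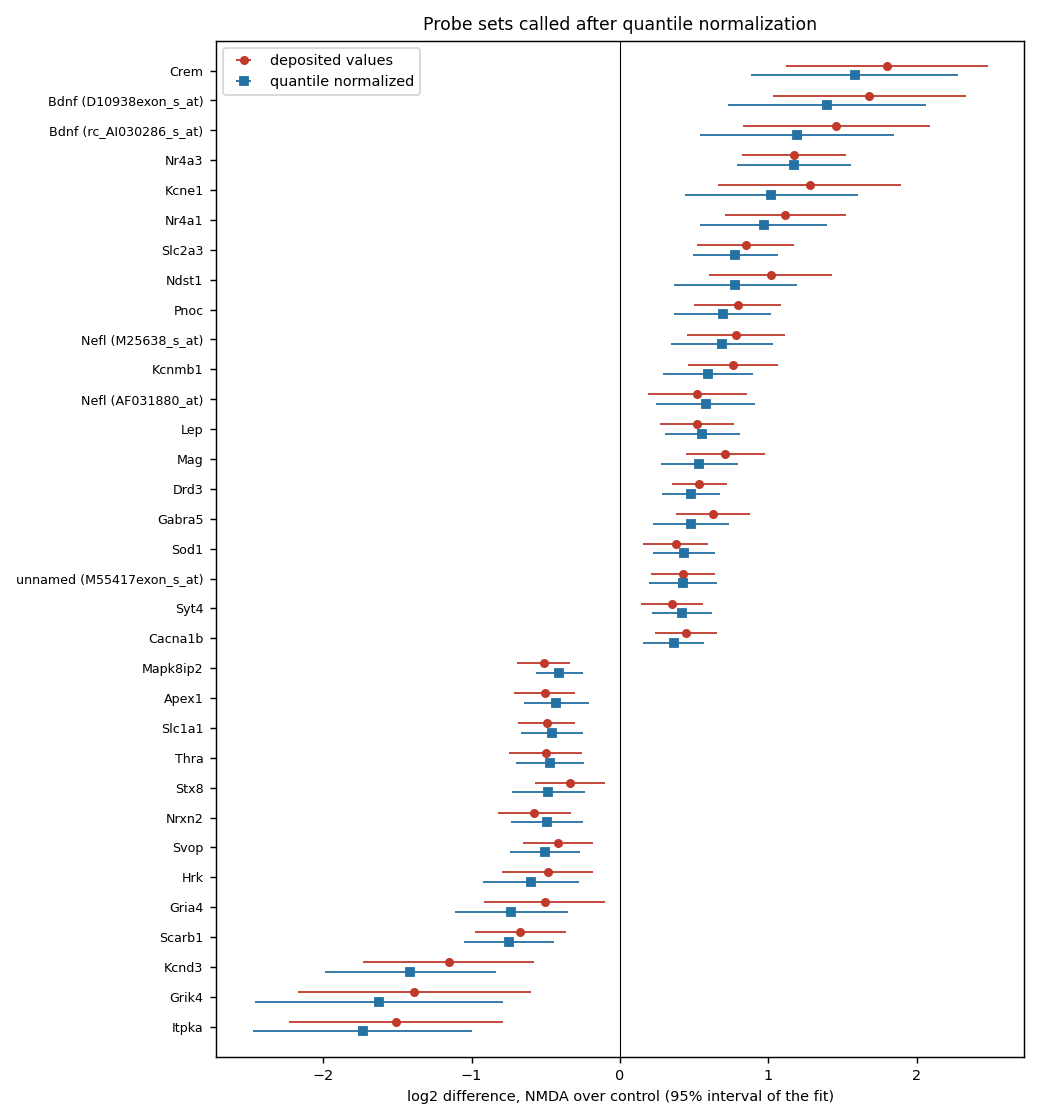
Log2 difference of NMDA over control with the 95% interval of the fit for the 33 probe sets called after quantile normalization, on deposited values (circles) and after quantile normalization (squares). Every probe set lies on the same side of 0 on both scales, from Crem at 1.80 and 1.58 down to Itpka at -1.51 and -1.74.

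Transcription factors of the immediate early class were among the largest rises. Crem, a CREB-family gene whose short ICER products repress cAMP-responsive promoters, had signals of 2866, 2884, 2686, 2394 and 1581 on the NMDA arrays, against 349.6, 882, 940.5, 930 and 437 on the control arrays. Every NMDA array lay above every control array, and NMDA replicate 5 was the lowest of its group. Crem rose by 1.58 (SE 0.33, adjusted p = 0.0141). Nr4a3, an orphan nuclear receptor induced by neuronal activity, had signals of 9392, 11688, 9887, 7534 and 7219.5 on the NMDA arrays, against 3753, 3752, 3639.6, 3807 and 4979.5 on the control arrays. Its groups did not overlap either, and it rose by 1.17 (SE 0.18, adjusted p = 0.00383), the smallest adjusted p of the comparison. The related receptor Nr4a1 had signals of 2928, 3577, 2693, 3304 and 1870.5 on the NMDA arrays, against 1028, 1284, 1198, 1964 and 1039 on the control arrays. Here control replicate 4 exceeded NMDA replicate 5, yet the same-numbered NMDA array was the higher in 5 of 5 cases, and Nr4a1 rose by 0.97 (SE 0.20, adjusted p = 0.0141). A second Nr4a1 probe set, U17254_g_at, was at 0.93 (SE 0.26, adjusted p = 0.0538) and passed with the block (adjusted p = 0.00448), and the second tested Nr4a3 probe set, X86003_at, was at 1.02 (SE 0.41, adjusted p = 0.142).

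Bdnf encodes a neurotrophin that supports survival and strengthens synapses, and its transcription in neurons depends on calcium entry. Its brightest probe set, D10938exon_s_at, had signals of 2394, 2535, 1509.7, 1171 and 867 on the NMDA arrays, against 312, 454, 404, 512 and 613 on the control arrays. The groups did not overlap, although the NMDA arrays spread over a wider range than the control arrays. It rose by 1.40 (SE 0.32, adjusted p = 0.0199). The probe set rc_AI030286_s_at had signals of 836, 1296, 865, 837 and 414 on the NMDA arrays, against 291, 289.5, 159.9, 273 and 288 on the control arrays, again without overlap, and rose by 1.19 (SE 0.31, adjusted p = 0.0337), but it was called in 1 of the 10 fits that left out an array, with a highest adjusted p of 0.101 by limma. The other tested Bdnf probe sets were lower in signal than D10938exon_s_at. S76758_i_at was at 0.92 (SE 0.31, adjusted p = 0.0972) and S71201mRNA_at at 0.89 (SE 0.26, adjusted p = 0.059), and both were called on deposited values. S71196mRNA_s_at was at 0.76 (SE 0.38, adjusted p = 0.26). S76799_at was at -0.04 (SE 0.17, adjusted p = 0.934), so the probe sets of Bdnf did not move alike. Which Bdnf transcript each one reads was not analysed here.

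Crem, Bdnf and Nr4a1 are textbook targets of CREB, so the 250 bases before their RefSeq transcript starts (rat build GRCr8) were searched for the cAMP response element TGACGTCA and for its 5-base core TGACG on either strand, the first motif containing the second. The windows below are shown because these genes rose together, with each TGACG or its complement CGTCA in capitals and TGACGTCA whole.
Crem start number 2 (chr17:58984547-58984796, plus strand): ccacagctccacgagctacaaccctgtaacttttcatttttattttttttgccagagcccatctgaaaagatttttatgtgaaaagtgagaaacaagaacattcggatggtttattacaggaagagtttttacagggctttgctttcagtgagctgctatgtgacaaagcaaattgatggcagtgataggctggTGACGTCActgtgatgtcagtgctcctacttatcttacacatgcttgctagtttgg
Bdnf start number 4 (chr3:116637608-116637857, plus strand): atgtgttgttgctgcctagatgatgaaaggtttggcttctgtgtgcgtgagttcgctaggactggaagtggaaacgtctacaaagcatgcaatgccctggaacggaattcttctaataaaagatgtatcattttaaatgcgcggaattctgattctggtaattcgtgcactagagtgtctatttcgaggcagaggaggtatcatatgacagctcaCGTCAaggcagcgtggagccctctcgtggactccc
Nr4a1 (chr7:134259888-134260137, plus strand): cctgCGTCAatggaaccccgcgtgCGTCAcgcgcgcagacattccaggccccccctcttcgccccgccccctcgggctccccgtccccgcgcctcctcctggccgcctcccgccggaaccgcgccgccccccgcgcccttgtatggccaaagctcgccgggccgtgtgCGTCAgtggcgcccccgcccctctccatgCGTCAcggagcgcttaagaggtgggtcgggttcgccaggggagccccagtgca

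The full element was found in 2 of the 3 Crem windows, ending 49 bases before the second start and 28 before the third. The Bdnf window held the core once, ending 31 bases before the start, as the only 1 of 6 Bdnf windows, and the Nr4a1 window held it 4 times, the nearest ending 49 bases before the start. Of the 17 named genes that rose, 13 had at least 1 window, 20 in all, and 10 of the 20 held the core, against 1 of 10 windows of the 9 matched genes among the 13 that fell. These counts are of windows and not of genes. All 3 Crem windows were among those with the core, Nr4a3 had no window, and Bdnf windows 5 and 6 overlap each other. Sod1, whose window also held the core, counts as risen by 1 of its probe sets while its others lay below 0. Egr1 and Junb, not called after quantile normalization without the block, held the core 2 times and 1 time in their windows. The core was in 26.6% of the 459 windows of tested genes and in 18.2% of all 33469 windows. The full element was in 2 of the 20 windows of risen genes, 0 of the 10 of fallen genes, 3.27% of those of tested genes and 1.59% of all windows. The AP-1 motif TGANTCA was in 2 of the 20 and 0 of the 10 windows, against 5.66% of tested genes' windows and 6.34% of all. The EGR motif GCGNGGGCG was in 2 of the 20 and 1 of the 10, a share like the 10.2% of tested genes' windows, with 4.29% of all. These matches describe the windows; binding was not measured.

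Several rises belonged to genes outside transcription. Slc2a3, the main neuronal glucose transporter, had signals of 4800.2, 3957, 4095, 3680.2 and 3987 on the NMDA arrays, against 2692, 1599.6, 3045, 1819 and 2387 on the control arrays. No array of the groups overlapped, and it rose by 0.78 (SE 0.14, adjusted p = 0.00795). A second probe set of it, D13962_at, was at 0.62 (SE 0.22, adjusted p = 0.105). Pnoc, which encodes the precursor of the opioid-like peptide nociceptin, had signals of 4308, 3841, 3284, 4435 and 3159.5 on the NMDA arrays, against 2293, 1969, 1927, 2339.9 and 2257 on the control arrays, also without overlap, and rose by 0.69 (SE 0.16, adjusted p = 0.0193). Nefl, the light neurofilament chain, rose at both of its called probe sets, by 0.69 (SE 0.16, adjusted p = 0.0206) at M25638_s_at, where the arrays averaged 3519 ± 724 on the NMDA arrays and 2000.1 ± 244 on the control arrays (SD, n = 5 each), and by 0.58 (SE 0.16, adjusted p = 0.0476) at AF031880_at. At the second of these, NMDA replicate 5 at 8283 lay within the control range of 7501 to 9022. Ndst1, an enzyme that sulfates heparan sulfate, rose by 0.78 (SE 0.20, adjusted p = 0.0304), with 1494 ± 123 on the NMDA arrays and 737 ± 229 on the control arrays (SD, n = 5 each).

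**Figure D3:**
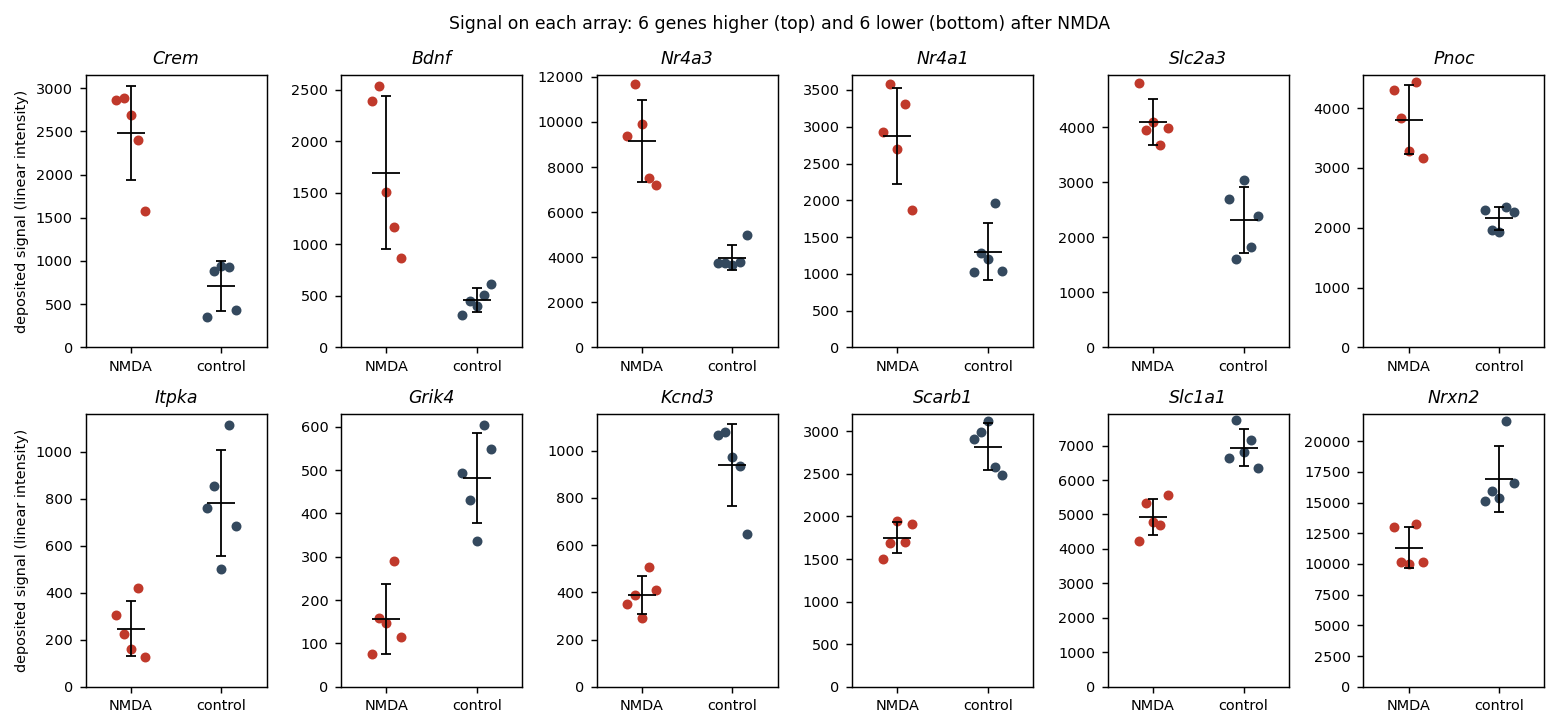
Deposited signal on each of the 5 NMDA and 5 control arrays for 6 genes that rose (top) and 6 that fell (bottom); points are arrays in order of replicate number, and bars are the mean and SD. In 11 of the panels the 2 groups do not overlap, and in Nr4a1 control replicate 4 lies above NMDA replicate 5.

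The remaining rises were smaller and mixed in kind. Among channel and receptor genes, Kcne1, an accessory potassium channel subunit, was dim, with signals of 359, 260.5, 381, 518 and 644 on the NMDA arrays, against 68.3, 272, 148, 58.3 and 227 on the control arrays. The groups overlapped and it rose by 1.02 (SE 0.28, adjusted p = 0.0476). Its control average of 154.7 lay below 255, the lowest tested mean, so it passed the floor through the other groups. Kcnmb1, an accessory subunit of calcium-activated potassium channels, rose by 0.59 (SE 0.14, adjusted p = 0.0243), Gabra5, a GABA-A receptor subunit, by 0.48 (SE 0.12, adjusted p = 0.0324), and Drd3, a dopamine receptor, by 0.48 (SE 0.09, adjusted p = 0.00898). Cacna1b, the pore of N-type calcium channels, rose by 0.36 (SE 0.10, adjusted p = 0.043) and Syt4, an activity-regulated synaptotagmin, by 0.42 (SE 0.10, adjusted p = 0.0201) at U14398_at. The brighter Syt4 probe set U14398_g_at was at 0.25 (adjusted p = 0.122 by limma) and was called on neither scale. Mag, a myelin glycoprotein, rose by 0.53 (SE 0.12, adjusted p = 0.0201) at 1 probe set and was at 0.15 at another. The 6 oligodendrocyte markers on the array, Mag among them, summed to 5286 to 14133 on NMDA arrays and 4357 to 8308 on control arrays in deposited signal. The other tested markers went both ways, with Pdgfra at 0.23, Mbp at 0.20, Cnp at -0.27 and Sox10 at -0.92, none called. The part of these cells in the rise of Mag was not tested. Lep, the leptin gene, rose by 0.55 (SE 0.12, adjusted p = 0.017) at a bright probe set that averaged 9621 ± 946 on the NMDA arrays and 6714 ± 906 on the control arrays (SD, n = 5 each); its dimmer probe set D45862_g_at was at 1.11 (SE 0.39, adjusted p = 0.103). Sod1, which encodes superoxide dismutase, rose at Y00404_s_at by 0.43 (SE 0.10, adjusted p = 0.0201), but its other tested probe sets were at -0.07 and -0.14, so the gene has no single direction here. The probe set M55417exon_s_at, which the annotation leaves unnamed, rose by 0.43 (SE 0.11, adjusted p = 0.0337).

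The largest fall was that of Itpka, a kinase of inositol trisphosphate that binds actin in dendritic spines. Its signals were 303, 222, 162, 419 and 126 on the NMDA arrays, against 759, 856, 501, 1112 and 683 on the control arrays. All NMDA arrays lay below all control arrays, and it fell to 246 on average, against 782 in controls, a difference of -1.74 (SE 0.35, adjusted p = 0.0127). Grik4, a kainate receptor subunit, had signals of 76, 158, 146, 291 and 114 on the NMDA arrays, against 494, 430.2, 337, 604 and 549 on the control arrays. The groups did not overlap, but the NMDA signals came close to the offset of 58.2 that was added before the log, so the size of -1.62 (SE 0.40, adjusted p = 0.025) depends on it: with offsets at the 25th and 5th percentiles it was -1.21 and -1.76. Grik4 averaged 157 on the NMDA arrays, also below 255, and so it too passed the floor through the other groups. Kcnd3, which encodes a pore subunit of A-type potassium channels, had signals of 352, 390.3, 289.7, 507 and 411 on the NMDA arrays, against 1066, 1077, 974, 937 and 647 on the control arrays at rc_AI230211_s_at, without overlap, and fell there by 1.41 (SE 0.27, adjusted p = 0.00898). Its other tested probe sets, U42975_at and U92897_s_at, were at 0.17 and 0.30 and were not called, so the fall holds for the first alone. Gria4, an AMPA receptor subunit, was at -0.73 (SE 0.18, adjusted p = 0.0281) at S94371_g_at after quantile normalization and at -0.51 (SE 0.20, adjusted p = 0.0957) on deposited values, and at -0.13 at its other tested probe set. Whether fewer cells of a type or less RNA per cell lies behind any of these values cannot be told apart in such samples.

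Scarb1, a receptor for high-density lipoprotein, had signals of 1501, 1693, 1949, 1696 and 1910.5 on the NMDA arrays, against 2914, 2995, 3125, 2586 and 2482 on the control arrays at D89655_at. The groups did not overlap and the difference was -0.75 (SE 0.15, adjusted p = 0.00898); its other tested probe sets were at -0.44 and -0.25 and were not called. Slc1a1, the neuronal glutamate transporter also called EAAC1, had signals of 4239.6, 5324, 4779, 4692 and 5560.5 on the NMDA arrays, against 6632, 7746, 6811, 7161 and 6335 on the control arrays. It too did not overlap, at -0.46 (SE 0.10, adjusted p = 0.017), while its other probe sets were at -0.27 and -0.20. Nrxn2, a presynaptic adhesion molecule, had signals of 13046, 10160.1, 10033, 13222 and 10142 on the NMDA arrays, against 15112, 15937, 15404, 21632 and 16636 on the control arrays, without overlap, at -0.49 (SE 0.12, adjusted p = 0.0206). Hrk, a BH3-only promoter of cell death, was at -0.60 (SE 0.15, adjusted p = 0.0327) at rc_AI102299_s_at and at -0.89 (SE 0.26, adjusted p = 0.0587) at D83697_at, and at -0.46 and -0.33 at the others.

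The other called falls were smaller. Mapk8ip2, a scaffold of the JNK pathway, averaged 12305 ± 1399.6 on the NMDA arrays and 17561 ± 1724 on the control arrays (SD, n = 5 each), at -0.41 (SE 0.08, adjusted p = 0.00898); on the mean with the repeat run it was at 0.06, and at -0.44 without the 2 control samples whose repeat arrays stood apart. Apex1, an enzyme of base excision repair, was at -0.43 (SE 0.10, adjusted p = 0.0243), but at 0.70 on the mean with the repeat run and -0.41 without those 2 control samples. Thra, a thyroid hormone receptor, was at -0.47 (SE 0.11, adjusted p = 0.0201) at M31174_g_at, against -0.04 at its brighter probe set M31174_at, so its probe sets differ. Svop, a synaptic vesicle protein, was at -0.51 (SE 0.11, adjusted p = 0.0188), and Stx8, an endosomal syntaxin, at -0.48 (SE 0.12, adjusted p = 0.0243); Stx8 and Gria4 were the probe sets called after quantile normalization and not on deposited values.

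Another set of genes was called, without the block, on deposited values and not after quantile normalization. Igf1, a growth factor, had signals of 1398, 1276, 1613, 732 and 312 on the NMDA arrays, against 215, 449, 243, 85.8 and 77.9 on the control arrays at M15481_g_at. NMDA replicate 5 lay within the control range, and the difference was 2.04 (SE 0.58, adjusted p = 0.0259) deposited and 1.79 (SE 0.58, adjusted p = 0.0838) after quantile normalization. Its other tested probe sets were at -0.24 and -0.02 after quantile normalization and at 0.04 and 0.23 deposited. Chrna7, the alpha7 nicotinic receptor subunit, had signals of 1241, 1046, 879.5, 657 and 1053 on the NMDA arrays, against 583, 66.2, 611, 112 and 269 on the control arrays. These did not overlap, but control replicates 2 and 4 were near the offset; the difference was 1.70 (SE 0.43, adjusted p = 0.0155) deposited and 1.46 (SE 0.44, adjusted p = 0.0632) after quantile normalization. Fos passed on deposited values at 2 of its 3 probe sets, by 1.13 (SE 0.32, adjusted p = 0.023) and 0.78 (SE 0.24, adjusted p = 0.0392), as did Junb by 0.92 (SE 0.25, adjusted p = 0.0207), Nptx2, a secreted pentraxin that clusters AMPA receptors, by 0.78 (SE 0.25, adjusted p = 0.0415) and Fosl2 by 0.81 (SE 0.26, adjusted p = 0.0415). After quantile normalization these were at 1.04, 0.79, 0.72, 0.68 and 0.55, none called. With the replicate block both Fos probe sets, Junb, Nptx2, Igf1 and Chrna7 passed after quantile normalization (adjusted p = 0.018, 0.00409, 0.0434, 0.013, 0.0184 and 0.0394), and Fosl2 did not (0.113).

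Fos was a gene whose samples moved with their number. At X03347cds_g_at its signals were 5236, 6552, 4902, 6566 and 2423 on the NMDA arrays, against 1739, 2147, 1918, 3912 and 1793 on the control arrays. NMDA replicate 5 lay below control replicate 4, so the groups overlapped, while each NMDA array exceeded its same-numbered control. Egr1, a zinc finger factor of the same early class, did not follow. At AF023087_s_at its signals were 15353, 20219, 13256, 48654 and 52025 on the NMDA arrays, against 31447, 41930.3, 27979, 47103 and 53731 on the control arrays. NMDA replicates 4 and 5 were in the range of controls and replicates 1 to 3 below all of them, and the difference was -0.57 (SE 0.42, adjusted p = 0.459); the other Egr1 probe sets were at -0.54, -0.60 and 0.04, none called. Penk, the enkephalin precursor, was at 0.33 (SE 0.21, adjusted p = 0.393) at its brighter probe set.

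Over the list of immediate early and activity-regulated genes, 17 of 40 were on the array and all 17 were tested. This list, like those below, was chosen with earlier results of these data known, which already named Bdnf, Crem and Nr4a3. Its counts therefore describe the list and are no independent support. After quantile normalization 4 were called higher (Crem, Bdnf, Nr4a3 and Nefl) and 0 lower, where 2.26% of all tested probe sets were called higher, and the median difference was 0.55, against 0 over all. On deposited values 9 were called higher, where 11.0% of all were, and 0 lower, with a median of 0.52 against 0.16 over all. Centring on medians gave 4 higher, 0 lower and a median of 0.25. Over all 884 probe sets it gave 33 higher, 148 lower and a median of -0.11. With the replicate block 8 of the 17 passed, all higher, where 7.01% of all were higher. Nr4a1 was not among the 4 because its brightest probe set, U17254_g_at, which stands for it in the list, missed the threshold at 0.93, while U17254_at was called. The other members without a call ran from Fos at 0.79 to Jun at -0.33 and Egr1 at -0.57.

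Glutamate receptors include the target of the agonist. After quantile normalization 3.73% of all tested probe sets were called, the share against which the counts of these small lists are read. Of the NMDA receptor subunits 7 were tested and 0 called on either scale; with limma 0 passed with the block too, and centring on array medians gave 1 call, lower. Grin1, the obligatory subunit, averaged 1901 ± 484 on the NMDA arrays and 1288 ± 404 on the control arrays (SD, n = 5 each) and was at 0.38 (SE 0.20, adjusted p = 0.287). Grin2b was at 0.16 (SE 0.13, adjusted p = 0.519), Grin2a at 0.07 (SE 0.26, adjusted p = 0.927), Grin2c at -0.28 (SE 0.25, adjusted p = 0.561), Grin2d at 0.12 (SE 0.24, adjusted p = 0.843), Grin3a at -0.07 (SE 0.24, adjusted p = 0.906) and the receptor-associated Grina at -0.05 (SE 0.07, adjusted p = 0.721). A second Grin2d probe set, U08260_at, was called on deposited values by 0.53 (SE 0.17, adjusted p = 0.0428) and was at 0.28 after quantile normalization. Of 8 tested AMPA, kainate and delta subunits, 2 were called lower (Grik4 and Gria4) and 0 higher, and all 8 lay below 0 after quantile normalization, with a median of -0.39. On deposited values 7 of the 8 were below 0, with a median of -0.15 and 1 call (Grik4). Centring on medians left all 8 below 0, with 4 called and a median of -0.42 against -0.11 over all. Over all 884 probe sets centring called 148 lower and 33 higher. The other members were Gria1 at -0.40, Grik3 at -0.42, Grik2 at -0.38, Grid1 at -0.26, Grik5 at -0.08 and Gria2 at -0.04. The 6 tested metabotropic receptors held 0 calls, with a median of -0.19 after quantile normalization, -0.26 after centring and 0 on deposited values. All 6 also lay below 0 after quantile normalization, 0 lay above it after centring, and 3 were below it on deposited values. Among all 884 tested probe sets, 443 lay below 0 after quantile normalization, 538 after centring and 321 on deposited values.

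**Figure D4:**
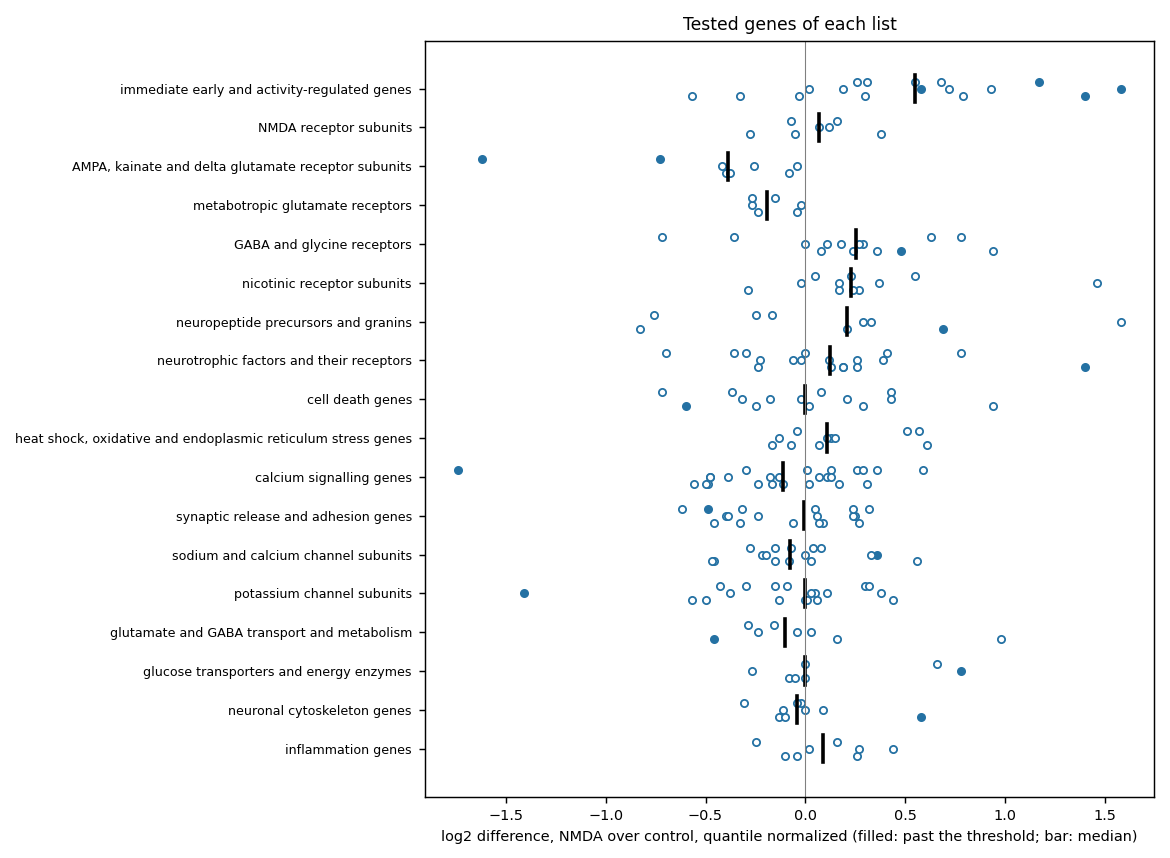
Log2 difference of NMDA over control after quantile normalization for each tested gene of the 18 lists, each gene by its brightest probe set; filled points are called and the bar is the list's median. The activity-regulated list has its median at 0.55. All 8 points of the AMPA, kainate and delta list and all 6 of the metabotropic list lie left of 0.

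Calls over all probe sets, for comparison with the receptor and channel lists, were 2.26% higher and 1.47% lower after quantile normalization and 11.0% higher and 2.94% lower on deposited values. Among inhibitory and cholinergic receptors, 1 of 14 GABA and glycine receptor genes was called higher after quantile normalization (Gabra5) and 4 higher and 1 lower on deposited values: Gabrr1 by 1.17, Gabra4 by 0.87, Gabra5 by 0.63 and Gabra2 by 0.57 rose, and Gabbr2, a subunit of the metabotropic GABA receptor, was at -0.39. Their median was 0.26 after quantile normalization, 0.24 after centring and 0.51 deposited. Of 11 nicotinic subunits 0 were called after quantile normalization and 3 rose on deposited values, Chrna7, Chrng by 0.56 and Chrnb1 by 0.50; Chrnb4 rose by 0.91 at a probe set other than its brightest. Among 16 sodium and calcium channel genes Cacna1b was called on both scales and Cacna1a, the P/Q-type pore, by 0.66 on deposited values only. Of 19 potassium channel genes Kcnd3 was called lower on both scales and Kcnj1 higher by 0.72 on deposited values. The accessory subunits Kcne1 and Kcnmb1, called higher on both scales, are not in that list.

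Calcium signalling genes include kinases, channels and pumps. Of 25 tested, Itpka was the 1 call after quantile normalization, and the list's median was -0.11, against 0 over all; with the block 6 were lower and 1 higher, where 7.92% of all were lower and 7.01% higher. Those lower with the block were Itpka, Pnck at -0.56, Prkcb at -0.50, Camk2g at -0.49, Itpr1 at -0.48 and Atp2b2 at -0.48, and the higher was Atp2a2, the calcium pump of the reticulum, at 0.36. Centring gave 8 lower, 0 higher and a median of -0.36, where over all 884 probe sets it gave 148 lower, 33 higher and a median of -0.11. On deposited values Atp2a2 and Itpkb (by 0.58) rose, and Camk2d by 0.64 at a probe set other than its brightest. Another Atp2b2 probe set, L05557cds_g_at, was called higher by 0.43 on deposited values, the other direction. Of 18 synaptic release and adhesion genes Nrxn2 was called on both scales and Syt5 at -0.37 on deposited values. Of 8 genes of glutamate and GABA transport and metabolism, Slc1a1 was called on both scales and Glud1, glutamate dehydrogenase, at -0.38 on deposited values.

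Cell death genes were called in both directions on deposited values, where 11.0% of all probe sets were called higher and 2.94% lower. Of 14 tested, 4 were called higher, Casp6 by 1.19, Bcl2l2 by 0.71, Casp1 by 0.69 and Bcl2 by 0.56, and 3 lower, Hrk, Capn2 at -0.35 and Bad at -0.26. After quantile normalization Hrk was the 1 call and the median was 0. Centring gave 7 lower, 0 higher and a median of -0.32, where over all 884 probe sets it gave 148 lower, 33 higher and a median of -0.11. After quantile normalization Casp6 was at 0.94 and Capn2, a calpain protease, at -0.37 (adjusted p = 0.0501). Of 11 genes of heat shock, oxidative and reticulum stress 0 were called on either scale, counting each gene by its brightest probe set, and of 8 tested inflammation genes 0. Nos2, the inducible nitric oxide synthase, was called on deposited values at the dim probe set S71597_s_at by 1.38 and was at 0.14 and 0.10 at the others. Of 18 neurotrophic factor and receptor genes Bdnf was called on both scales, Tgfb2 by 0.54 on deposited values, and Igf2 by 0.65 at a probe set other than its brightest. Of 7 glucose transporter and energy genes Slc2a3 was called on both scales and Slc2a4 by 0.94 on deposited values. Htr2c, a serotonin receptor outside the lists, rose on deposited values by 1.20 (SE 0.28, adjusted p = 0.00939) and was at 0.97 after quantile normalization.

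Some neuropeptide precursors varied widely between samples of 1 group. Sst, which encodes somatostatin, had signals of 41114, 27593, 30224, 14682 and 2317 on the NMDA arrays, against 11450.4, 5070.2, 5029, 7194 and 1983 on the control arrays. Replicate 5 was lowest in both groups, and each NMDA array exceeded its same-numbered control. Without the block the difference of 1.58 (SE 0.76, adjusted p = 0.23) was not called, and with it Sst passed (adjusted p = 0.00448). Gad1, which makes GABA, showed the same arrangement, with signals of 8227, 5376, 5562, 3754 and 771 on the NMDA arrays, against 3140.4, 1898, 2189.9, 2059 and 588 on the control arrays, at 0.98 (SE 0.64, adjusted p = 0.402) without the block and adjusted p = 0.0021 with it. Tac1, the substance P precursor, was at -0.83 (SE 0.67, adjusted p = 0.503), Npy at 0.21 (SE 0.18, adjusted p = 0.549) and Cck at -0.25 (SE 0.27, adjusted p = 0.659). Sst, Gad1, Tac1, Npy and Cck, like the calcium genes that passed with the block alone, were named after their values were seen. Of 9 tested precursors Pnoc was the 1 call without the block, and the list's median was 0.21.

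Markers checked the cultures. Summed over 12 genes on the array, neuronal markers gave 120241 to 138693 on NMDA arrays and 126312 to 143733 on control arrays. Of 11 tested, Nefl was called higher and 0 lower, and the median was 0.05. The 7 astrocyte markers summed to 51477 to 59131 on NMDA arrays and 50413 to 63207 on control arrays, with 0 of 7 called. Of 5 tested oligodendrocyte markers, whose sums are given beside Mag, 1 was called, Mag itself. Microglia and endothelial or meningeal cells had 1 gene each on the array, with sums of 148 to 252 and 1434 to 4907 on NMDA arrays, against 86 to 258 and 2092 to 4555 on control arrays. The cultures thus held transcripts of the astrocyte list beside neuronal ones, at sums that overlapped between the groups. Of the 12 genes of the astrocyte list, 7 were on the array, and the brightest were Apoe, Glul and Vim. These averaged 21451, 12378 and 11679 on the NMDA arrays, while Slc1a2 and Gja1 were dim there, at 341 and 483.

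The cultures kept in nicotine gave a second comparison of the same pulse on 10 other arrays of the run. There 18 probe sets were called on deposited values (2.04%) and 17 after quantile normalization (1.92%). Of the 33 probe sets, 16 of 20 rises and 12 of 13 falls had the same sign, 23 at an unadjusted p under 0.05 and 10 called. Over all 884 probe sets 141 were at an unadjusted p under 0.05 by limma in this comparison after quantile normalization. The 10 were 2 Bdnf probe sets at 2.28 and 1.75, Nr4a3 at 1.46, Nr4a1 at 0.95, Nefl at 0.89, Slc2a3 at 0.63, Gabra5 at 0.48, Syt4 at 0.45, Scarb1 at -0.66 and Slc1a1 at -0.50. Crem was at 1.21 there (adjusted p = 0.0671), Itpka at -1.22 (0.0845), Grik4 at -0.86 and Kcnd3 at -0.56. Kcne1, Ndst1, Mag and Sod1 were at -0.27, -0.16, -0.03 and -0.10, and Gria4 at 0.01. The difference between the pulse's effect with and without nicotine was tested as an interaction by limma, and 0 probe sets passed (0%), with 81 at an unadjusted p under 0.05 on deposited values and 46 after quantile normalization.

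The same samples were hybridized again because of an oven failure, per the labels, which do not state which run's arrays it affected. The repeat measures the same samples and adds no cultures. Control replicates 3 and 4 of the repeat stood apart, with median signals of 1279.6 and 1375.8, against 523.5 to 608.1 for the other control arrays, and correlated with their own first-run arrays at 0.129 and 0.572, where the other 18 samples gave 0.932 to 0.974. With all arrays 2 probe sets were called on deposited values (0.226%), Nr4a3 and Slc2a3, and 0 after quantile normalization, with 168 at an unadjusted p under 0.05. Without those 2 control arrays 17 were called (1.92%, 8 higher and 9 lower), and 4 after quantile normalization. Single arrays moved the first count as well: 0 passed without any 1 of NMDA replicates 1 to 4, 17 without control replicate 2 and 18 without control replicate 5. Because both runs measured the same samples, the values are only set side by side with those above. Among the 33 probe sets, those called on deposited values without the 2 arrays were Nr4a3 at 1.32, Nr4a1 at 1.25, Slc2a3 at 1.15, Pnoc at 0.76, Scarb1 at -0.94, Nrxn2 at -0.64 and Mapk8ip2 at -0.46. With all arrays Nr4a3 was at 2.29 and Slc2a3 at 1.08, and without the 2 arrays and after quantile normalization Crem was at 0.97, Itpka at -1.73, Kcnd3 at -0.45 and Grik4 at -0.30. The effect in the first run minus that in the repeat gave 0 calls by limma (0%) with all arrays, 207 at an unadjusted p under 0.05 on deposited values, and 1 call without the 2 control samples. That count also moved with single samples, to 74 without control replicate 2 and 115 without control replicate 5.

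Another experiment of the series applied the same 30 min pulse to other cultures, 4 NMDA and 4 control arrays, also harvested 24 h after washing; 1 of its NMDA arrays carries 60 min in 1 label field. There 12 probe sets were called (1.36%), all higher, and 11 after quantile normalization; 7 passed on deposited values without NMDA replicate 1, NMDA replicate 2, control replicate 3 or control replicate 4. Of the 32 of the 33 probe sets measured there, 12 of 20 rises and 12 of 12 falls had the same sign after quantile normalization, and 5 were called: Bdnf at 2.64 and 2.91, Crem at 2.10, Nr4a1 at 1.97 and Nr4a3 at 1.45. Fos was called there at 3 probe sets, by 2.68, 2.37 and 1.95, and Penk by 1.79, where the first run had 0.33. Slc2a3, at 0.35, and Pnoc, at 0.23, were not called in those cultures, nor was any of the 12 falls, with Scarb1 at -0.66, Slc1a1 at -0.68 and Nrxn2 at -0.57. The rises with the opposite sign there were Kcne1 at -0.49, Sod1 at -0.33, Kcnmb1 at -0.24 and Ndst1 at -0.15. M55417exon_s_at at -0.15, Lep at -0.14, Drd3 at -0.09 and Gabra5 at -0.02 also had the opposite sign, and none of these was called. Differences between these experiments in effect were not tested.

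**Figure D5:**
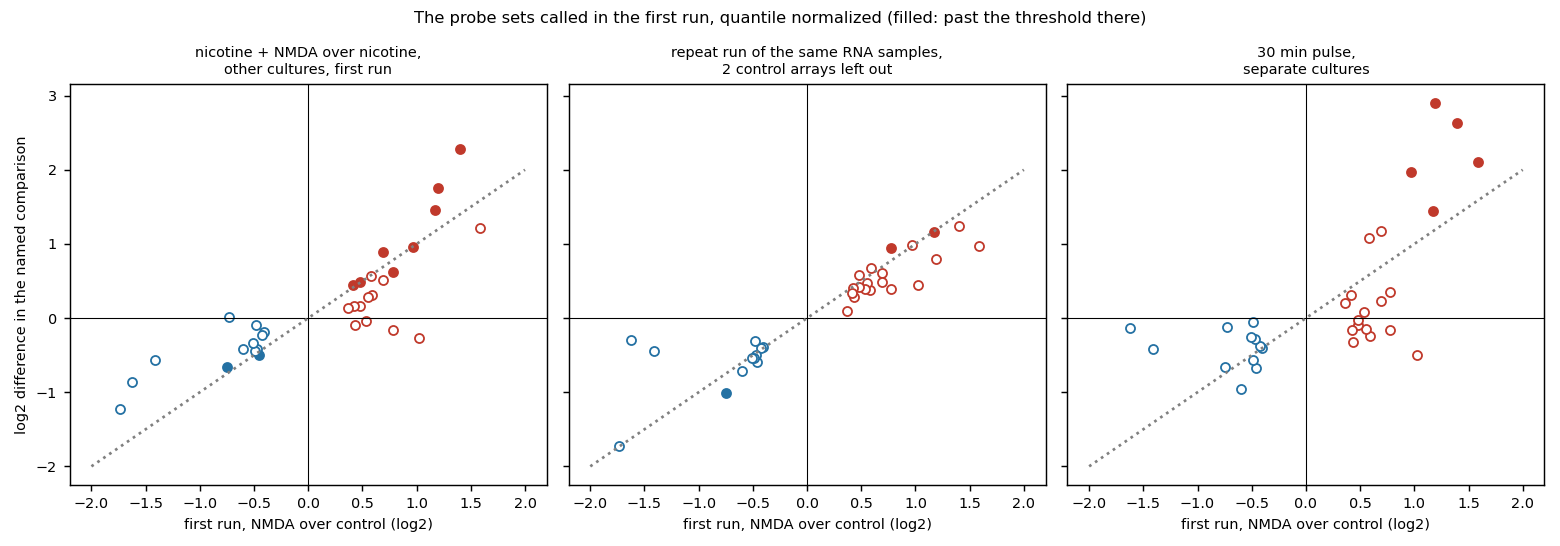
The 33 probe sets called after quantile normalization, with their log2 difference in the first run on the horizontal axis and in another comparison on the vertical axis: nicotine with NMDA over nicotine, the repeat run without its 2 control arrays that stand apart, and the 30 min pulse in separate cultures. Filled points passed the threshold there, red points rose and blue points fell in the first run, and the dotted line marks equal differences. The repeat panel measured the same samples as the horizontal axis. In the separate cultures 5 points are filled, all rises.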

How the data were processed

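Cultures of rat cortical neurons were read on a short-oligonucleotide array of 1322 probe sets. The deposited values are linear intensities that the authors had scaled so that arrays share a common mean after trimming 2% at each end, as the deposited table itself shows; the software and genome build are not given in the sources used here. Of 1263 probe sets left after removing 59 controls, 1137 have 1 gene in the platform annotation, 8 several and 118 none, and none of the symbols needed updating.

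An offset at the 10th percentile of the run's positive values (57.2 deposited, 58.2 after quantile normalization) was added before log2. For probe sets above the 30th percentile of mean signal, limma 3.58.1 (lmFit, eBayes with trend; R 4.3.3) fitted 1 model over all 20 arrays and 4 groups of the run, with Benjamini-Hochberg adjustment and a threshold of 0.05. The same steps were applied to the repeat run and the separate cultures. A simulation checked only that the code returned the differences put in. Its noise was independent between arrays and its control arrays had no lower medians, so it does not bear on the block or the normalization. The number of arrays limits the precision, and no 2 arrays held identical values (0 pairs).

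Same-numbered NMDA and control arrays correlated in their deviations from the group means (0.392, 0.171, 0.259, 0.31 and 0.664 for numbers 1 to 5 after quantile normalization), so the number was also fitted as a block. The highest correlations with a differently numbered control were 0.36, 0.118, 0.3, 0.034 and 0.125, so number 3 was closer to another number. The pairing comes from the data, since the labels give only numbers.

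Named were the 10 largest rises and 10 largest falls past the threshold on each scale with all 5 NMDA arrays above, or all below, the control mean, list members past the threshold, the NMDA receptor subunits, and 12 genes that earlier results of these data name (Bdnf, Fos, Nr4a1, Nr4a3, Crem, Penk, Igf1, Slc2a3, Nptx2, Egr1, Junb and Scarb1). A gene of a list stands by its brightest probe set. The members and lists were chosen with earlier results of these data known. Alternatives were other offsets, filters, normalizations and array weights, only the 2 groups, the mean of both runs, the block and leaving out each array. Promoter windows of 250 bases came from RefSeq, build GRCr8.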

Additional observations from a re-analysis of the deposited data

Results flagged for a closer look

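In each of 190 groups of 5 arrays, the gap of the highest or lowest array to its neighbour was divided by the group's range, both on the log2 scale after quantile normalization and addition of the offset, and 13 groups passed Dixon's critical value of 0.71; chance gives about 1 in 20 groups. The values beside the ratios are on the same log2 scale. Among the NMDA arrays, replicate 5 was low for Crem (gap over range 0.842, at 10.61 against 11.35 to 11.49 in the others), for Fos at X03347cds_g_at (0.719, at 11.24 against 12.33 to 12.76) and for Nos2 at S71597_s_at (0.79, at 7.31 against 8.83 to 9.23). NMDA replicate 2 was high for Igf1 at M15481_at (0.794, at 9.37 against 8.18 to 8.43).

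Among the control arrays, replicate 5 was low for Atp2a2 (0.773, at 13.61 against 13.87 to 13.95) and high for Grina (0.758) and for Nefl at M25638_s_at (0.733, at 11.37 against 10.94 to 11.05). Replicate 3 was low for Bdnf at rc_AI030286_s_at (0.84, at 7.89 against 8.57 to 8.70). It was high for Gabra5 by a small gap in a narrow range (0.912, at 10.91 against 10.85 in the others). Replicate 4 was high for Junb (0.742) and for Nrxn2 (0.787, at 14.36 against 13.84 to 13.95). Replicate 2 was high for Kcnj1 (0.777) and low for Svop (0.735).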

How the results depend on the processing

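The 33 probe sets called after quantile normalization became 132 with the replicate block, 58 with the block in a fit of only the 2 groups, 116 with array weights, 14 on the mean of both runs and 123 on deposited values; other offsets, other filters and only the 2 groups gave 29 to 43, and leaving out 1 array 10 to 61. The 123 on deposited values became 210 with the replicate block, 204 with array weights, 33 after quantile normalization, 10 on the mean of both runs and 61 on that mean leaving out both control samples whose repeat arrays stand apart (chosen after seeing the data, as was the block with 2 groups); leaving out 1 array gave 71 to 129. The 2 calls of the repeat run became 0 after quantile normalization, 9 with the replicate block, 1 with no filter and 17 without both control arrays that stand apart, and 0 to 18 without 1 array. The run difference, 0, became 1 without those control samples and 0 to 115 without 1 sample. The 12 calls of the separate cultures became 20 with the replicate block and 7 to 11 without 1 array. The nicotine interaction stayed at 0 in each alternative run. Where the cause is not the construction of the setting, the cause was not tested.

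On the mean of both runs, log2 differences turned sign for Apex1 (0.46 deposited, 0.70 after quantile normalization), Bad (0.33, 0.42), Capn2 (0.49, 0.65), Glud1 (0.20, 0.46), Grina (0.39, 0.40), Atp2b2 at L05557cds_g_at (-0.12, -0.25), Tgfb2 (-0.25, -0.57), Htr2c (-0.08, -0.07), Igf2 (-0.01, -0.05), Grin2d at D13213_s_at (-0.06, -0.08) and at U08260_at (0, -0.02). On 1 scale alone they turned for Grin3a (-0.10, deposited), Grin2b (-0.07), Gabbr2 (0.15), Igf1 at X06107_r_at (0.19) and Mapk8ip2 (0.06), all 4 after quantile normalization. Leaving out both control samples as well, Grin2c was at 0.08 and Grin2d at -0.06 deposited, and Grin2d at -0.29, Grin3a at 0.28 and Grina at 0.04 after quantile normalization. Grin3a was at 0.16 deposited, -0.11 after median centring and -0.07 after quantile normalization, and Igf1 at X06107_r_at at 0.23, -0.04 and -0.02. Without 1 array, the signs also turned for Grin2a (-0.14 to 0.18), Grin2d (-0.12 to 0.26), Grin3a (-0.22 to 0.07) and Igf1 at X06107_r_at (-0.11 to 0.05) after quantile normalization, and Grin2c (-0.13 to 0.06) deposited. None of these but Apex1 and Mapk8ip2 was called after quantile normalization.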

Other observations

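After quantile normalization, limma with the replicate number as a block passed further genes that its fit without the block did not, each named after its values were seen. Casp2, a caspase, was at -0.72 (adjusted p = 0.103, with the block 0.00859). Gria1, an AMPA receptor subunit, was at -0.40 (adjusted p = 0.138, with the block 0.0432). Tgfa, a ligand of the EGF receptor, was at -0.70 (adjusted p = 0.0684, with the block 0.0227). Ntrk2, the receptor of the Bdnf protein, was at 0.41 (adjusted p = 0.287, with the block 0.0227), in the same direction as the called Bdnf probe sets.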
